A study of Mus musculus with 48 samples.

Results

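The proteasome subunit genes of the mouse were described here in the cerebral cortex of a Huntington's disease knock-in model. A gene was taken as a member when its symbol in the deposited count file was Psma, Psmb, Psmc or Psmd followed by a number, leaving out Psmb8, Psmb9, Psmb10 and Psmb11. The rule gave 35 of 48795 genes: 8 of the alpha ring and 7 of the beta ring of the core particle, 6 ATPases and 11 non-ATPase subunits of the regulatory particle, and 3 factors (Psmd5, Psmd9 and Psmd10) that assemble the regulatory particle and are not subunits of the finished complex. All 35 passed the filter on low counts and were tested.

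RNA of 48 mice, 24 males and 24 females, was sequenced at 6 months of age, 1 library per mouse, and all were listed under the strain C57BL/6. The groups were 8 Q140 x Msh3-/- mice, 8 Msh3-/- mice, 8 Q140 x Msh3+/- mice, 9 Msh3+/- mice, 8 Q140 mice with no altered Msh3 allele, and 7 wild-type (WT) mice. The Q140 allele puts a long CAG repeat into the endogenous huntingtin gene, Htt, and the labels give it in the heterozygous state. Msh3 encodes a DNA mismatch repair protein, and the labels do not say how its altered allele was made. The design asks what Q140 and the altered Msh3 allele, each alone and together, do to cortical RNA.

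The proteasome is the large protease that degrades proteins tagged with ubiquitin. Its core particle is a barrel in which alpha rings gate the entrance and beta rings carry the catalytic sites; the regulatory particle on its end binds the tagged protein, removes the ubiquitin, and unfolds and feeds in the chain with its ring of ATPases. The subunits are used in fixed proportion, and when proteasome activity is short the transcription factor encoded by Nfe2l1 raises their genes together, in part through antioxidant response elements. Protein degradation has long been studied in Huntington's disease because fragments of expanded huntingtin gather in ubiquitin-positive inclusions in neurons.

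Libraries held 35.9 M to 64.5 M counted reads, with a mean of 46.5 M reads. The labels give the tissue as cortex. Its neurons showed in Slc17a7, a vesicular glutamate transporter of excitatory neurons, at 195 to 259 FPKM, and Snap25, a synaptic protein of neurons, at 486 FPKM or more in every library. Neither gene is confined to cortex. Msh3 went against its labels. On the CPM scale, read counts scaled to a common library size, it had 105 to 125 CPM in Q140 x Msh3-/- mice, 99.1 to 120 CPM in Msh3-/- mice, 61.2 to 73.7 CPM in Q140 x Msh3+/- mice and 62.4 to 77.4 CPM in Msh3+/- mice, against 21.8 to 25.9 CPM in Q140 mice and 22.7 to 25.6 CPM in WT mice. Its RNA was thus 4.51-fold higher in mice labelled Msh3-/- and 2.79-fold higher in mice labelled Msh3+/- than in WT mice, and gene counts do not show what that RNA encodes. Group names below are the labels' names. Htt lay between 225 and 259 CPM in every library and did not separate the groups. The summed level of 4 choroid plexus markers reached 1136 CPM in a library of the Msh3-/- group and 374 CPM in a WT library, where group medians were 4.04 to 7.44 CPM, so each count below was also computed without the 3 libraries rich in Ttr, a choroid plexus transcript. It was likewise computed without 3 libraries known from earlier results of these counts to stand apart on component 2 of all genes.

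The promoters of 6 members are shown because the results turn on these genes: Psmb5 and Psmb6 encode catalytic subunits, Psmd4 and Psmc5 each moved with Psmc3 from mouse to mouse, and Psmc6 and Psmd14 moved with each other. Each runs 5′ to 3′ on the gene's strand from 250 bases before to 50 bases after the RefSeq start on GRCm38.p6. Capitals mark the core of the antioxidant response element (TGACNNNGC), the GC box (GGGCGG) and the CCAAT box (CCAAT), each searched on both strands. A CCAAT on one strand of Psmd14 overlaps one on the other strand.
Psmb5, chr14:54617946-54618245, minus strand: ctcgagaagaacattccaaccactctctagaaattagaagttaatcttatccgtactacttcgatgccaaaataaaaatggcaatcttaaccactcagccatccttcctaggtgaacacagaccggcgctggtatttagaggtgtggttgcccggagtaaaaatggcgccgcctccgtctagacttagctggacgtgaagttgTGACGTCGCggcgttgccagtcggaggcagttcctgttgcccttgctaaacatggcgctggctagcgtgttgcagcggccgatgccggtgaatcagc
Psmb6, chr11:70525107-70525406, plus strand: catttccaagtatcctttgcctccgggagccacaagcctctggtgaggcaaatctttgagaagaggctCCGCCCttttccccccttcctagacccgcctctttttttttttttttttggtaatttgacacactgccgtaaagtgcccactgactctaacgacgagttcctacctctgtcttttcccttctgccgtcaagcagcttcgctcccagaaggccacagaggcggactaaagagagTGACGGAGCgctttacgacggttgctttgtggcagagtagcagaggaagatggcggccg
Psmd4, chr3:95042565-95042864, minus strand: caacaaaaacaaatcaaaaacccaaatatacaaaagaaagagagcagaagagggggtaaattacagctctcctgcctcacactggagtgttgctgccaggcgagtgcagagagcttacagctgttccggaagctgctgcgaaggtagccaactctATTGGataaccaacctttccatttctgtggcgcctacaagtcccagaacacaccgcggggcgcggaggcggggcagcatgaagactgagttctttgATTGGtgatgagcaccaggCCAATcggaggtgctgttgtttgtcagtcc
Psmc5, chr11:106255935-106256234, plus strand: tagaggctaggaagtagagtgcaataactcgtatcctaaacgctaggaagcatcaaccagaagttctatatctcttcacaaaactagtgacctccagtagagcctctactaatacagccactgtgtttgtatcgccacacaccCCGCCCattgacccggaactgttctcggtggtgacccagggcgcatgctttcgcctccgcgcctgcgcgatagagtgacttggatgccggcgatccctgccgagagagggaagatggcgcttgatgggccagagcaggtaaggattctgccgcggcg
Psmc6, chr14:45329574-45329873, plus strand: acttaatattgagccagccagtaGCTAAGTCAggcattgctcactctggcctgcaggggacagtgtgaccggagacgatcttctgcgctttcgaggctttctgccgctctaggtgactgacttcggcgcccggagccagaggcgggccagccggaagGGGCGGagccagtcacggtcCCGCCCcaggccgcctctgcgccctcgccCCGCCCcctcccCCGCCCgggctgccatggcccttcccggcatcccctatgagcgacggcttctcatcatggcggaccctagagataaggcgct
Psmd14, chr2:61711444-61711743, plus strand: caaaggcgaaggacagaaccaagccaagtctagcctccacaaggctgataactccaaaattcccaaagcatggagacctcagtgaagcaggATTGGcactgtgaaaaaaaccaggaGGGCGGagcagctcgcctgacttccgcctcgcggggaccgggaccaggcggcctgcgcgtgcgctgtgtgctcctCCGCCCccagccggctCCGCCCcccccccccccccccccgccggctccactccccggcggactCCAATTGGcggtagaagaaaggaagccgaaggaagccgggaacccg

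Promoters were found for 28 of the 35 genes. The antioxidant response element core was in those of 5 of these 28 genes (17.9%), Psmb5, Psmb6, Psmc6, Psmd9 and Psmd12, beside 12.4% of 32851 promoters of the same length. It began at position -9 in Psmb6, -31 in Psmd9 and -47 in Psmb5 on the gene's own strand, counted back from the start, and at -227 in Psmc6 and -247 in Psmd12 on the opposite strand. The GC box was in 18 of the 28 (64.3%), beside 35.7% of all promoters, and the CCAAT box in 11 (39.3%), beside 37.4%. A match describes these letters only and says nothing of binding.

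The members were abundant in cortex, and their levels differed between the classes. Levels are compared as the deposited FPKM, which corrects for a length given to each gene (described below), averaged over 48 mice. Of the 35 genes, 33 lay above 3.18 FPKM, the median of the 20010 genes tested, and 28 lay above 10.01 FPKM, their upper quartile. Class medians, without Psma8, were 39.3 FPKM for the ATPases, 29.97 FPKM for the beta ring, 18.7 FPKM for the non-ATPase subunits, 18.3 FPKM for the alpha ring and 4.29 FPKM for the assembly factors.

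Among the ATPases, which unfold the substrate, Psmc5 was the highest of all members at 69.2 ± 4.13 FPKM (SD, n = 48). Psmc1 followed at 54.4 ± 3.36 FPKM, Psmc3 at 42.2 ± 1.79 FPKM, Psmc6 at 36.5 ± 1.78 FPKM and Psmc4 at 30.6 ± 0.765 FPKM (SD, n = 48 each). Psmc2 was the lowest ATPase by FPKM, at 13.2 ± 0.544 FPKM.

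Of the beta ring, the catalytic subunits were Psmb5 (chymotrypsin-like site) at 31.2 ± 1.53 FPKM, Psmb6 (caspase-like site) at 29.97 ± 1.498 FPKM and Psmb7 (trypsin-like site) at 17.0 ± 0.772 FPKM. The ranges of Psmb5 and Psmb6 overlapped, at 28.1 to 34.04 and 26.9 to 32.7 FPKM, while the highest Psmb7 value, 18.6 FPKM, was below both. Of the subunits without a catalytic site, Psmb1 averaged 57.0 FPKM, Psmb2 35.9 FPKM, Psmb4 21.1 FPKM and Psmb3 6.89 FPKM. The inducible subunits that take the place of the catalytic ones in the immunoproteasome are no members and were lower: Psmb10, which replaces Psmb7, averaged 12.3 FPKM, Psmb8, which replaces Psmb5, 0.638 FPKM, and Psmb9, which replaces Psmb6, 0.217 FPKM.

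The alpha ring, whose tails close the gate of the barrel, ran from Psma2 at 46.2 FPKM and Psma6 at 33.4 FPKM through Psma4 at 21.04 FPKM, Psma7 at 18.3 FPKM and Psma1 at 17.7 FPKM to Psma5 at 10.8 FPKM and Psma3 at 6.50 FPKM. Psma8, which in mouse replaces Psma7 in the proteasome of male germ cells, stood apart at 0.177 FPKM, from 3 to 27 counted reads a library.

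Of the non-ATPase subunits, Psmd7, the partner of the deubiquitinase in the lid, averaged 35.5 FPKM and the scaffold subunits Psmd2 and Psmd1 averaged 33.999 and 12.9 FPKM. Psmd4, a ubiquitin receptor, averaged 23.9 FPKM and Psmd14, the deubiquitinase, 18.6 FPKM. The lid subunits Psmd8, Psmd3, Psmd12, Psmd6, Psmd13 and Psmd11 averaged 22.5, 20.3, 18.7, 15.1, 13.2 and 8.33 FPKM. The assembly factors were the lowest class, with Psmd10 at 5.69 FPKM, Psmd5 at 4.29 FPKM and Psmd9 at 2.46 FPKM.

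The order within classes rested on the lengths behind the deposited FPKM. For Psma2 the FPKM implied a length of 944 bases, against 2911 bases for the principal transcript in GENCODE M21, and for Psma7 3072 against 914 bases. With CPM per kilobase of the principal transcript instead, an alternative chosen after seeing the data, Psmc5 was again the highest, Psma2 ranked 29 in place of 4 and Psma7 ranked 4 in place of 21. Class medians on that scale were 48.95 for the ATPases, 39.6 for the alpha ring, 34.8 for the beta ring, 34.1 for the non-ATPase subunits and 6.87 for the assembly factors, so the order of the alpha and beta rings turned. The order of the catalytic subunits turned too, with Psmb6 at 70.3, Psmb7 at 50.2 and Psmb5 at 30.2 CPM per kilobase, and the lowest ATPase was Psmc6, at 25.6, not Psmc2, at 37.1. The ratio of the highest to the lowest member, without Psma8, was 28.1 by FPKM and 12.5 by CPM per kilobase.

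**Figure D1:**
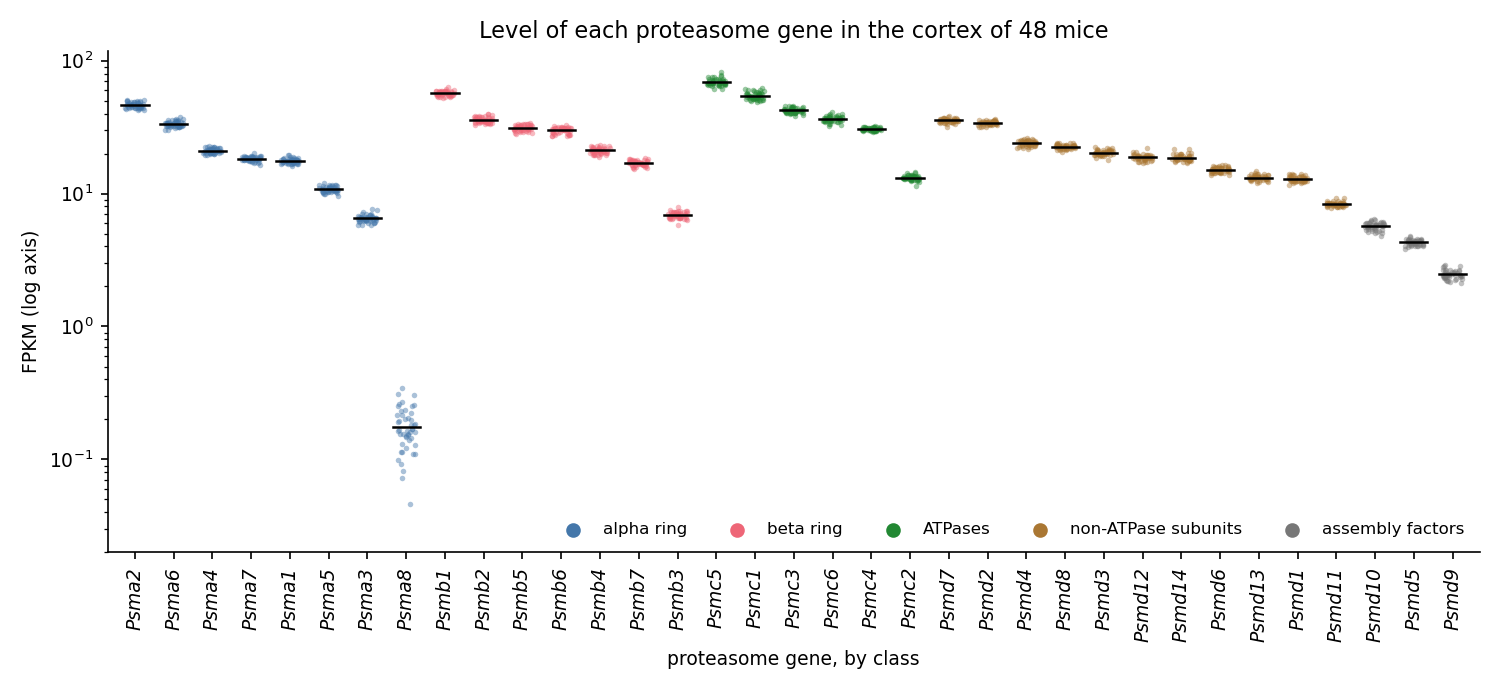
Deposited FPKM of the 35 proteasome genes (log axis), grouped by class and ordered by mean within each class; each point is 1 of 48 mice and each bar is the mean over the mice. The ATPases reached 69.2 FPKM with Psmc5, the assembly factors lay at 2.46 to 5.69 FPKM, and Psma8 lay apart at 0.177 FPKM.

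Each member differed little between mice. After genotype and sex were taken out, the SD of log2 CPM across mice had a median of 0.068 over the 34 members other than Psma8, against 0.14 over all genes tested. That background was not matched to the members in level, and it includes many genes with fewer reads. Psmc4 was the steadiest member at 0.037 and Psmd10 the most variable at 0.098, while Psma8, with few reads, had 0.52.

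No member differed between genotype groups after adjustment. In edgeR's quasi-likelihood test with Benjamini-Hochberg adjustment over 20010 genes, 0 of 35 members passed an adjusted p of 0.05 in all 7 comparisons of 2 genotypes, in both tests of a difference between Q140 effects, and in the test over the 6 genotypes at once. DESeq2 and limma voom with sample quality weights also called 0 members in each of these. Few genes of any kind were called in them, so the background is given beside each count below. Without Psma8, fold changes in the 7 comparisons of 2 genotypes ran from 0.913 to 1.06, and no 95% interval reached below 0.853 or above 1.13. The interval for Psma8 reached 0.513 and 1.70. Intervals were wider in the tests of a difference between Q140 effects. There they reached 0.826 in Psmc1 (1 altered Msh3 allele minus none) and 1.19 in Psma3 (2 altered alleles minus none). In bulk tissue fewer cells and less RNA per cell cannot be told apart.

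Members were nonetheless not evenly placed in Q140 x Msh3+/- mice against Msh3+/- mice, where 31 of 35 lay lower and 4 higher (11.4%). Of all genes 48.5% lay higher here, and 46.6% to 50.9% in the other comparisons of genotypes. Members moved together from mouse to mouse, as given below, so they are not 35 separate observations. The median of the members was -0.046 on the log2 scale, against -0.0026 over all genes. At an unadjusted p under 0.05 there were 8 members (22.9%), all lower, against 6.2% of all genes, while 0.015% of all genes and 0 members passed the adjusted threshold. The count was 10 when the 3 libraries standing apart on component 2 of all genes were left out and 6 without the 3 rich in Ttr. All 6 ATPases and all 7 members of the beta ring were lower, as were 10 of the 11 non-ATPase subunits. The summed level of 2 endothelial markers had a lowest, median and highest value of 72.5, 77.35 and 101 CPM in Q140 x Msh3+/- mice, against 66.2, 96.9 and 117.8 CPM in Msh3+/- mice, and that of 4 neuronal markers 5701, 5996 and 6280 CPM, against 5722, 6114 and 6419 CPM in Msh3+/- mice. Both ranges overlapped, and their part in the lean was not tested. By the plate column of the library's well, Msh3+/- mice were mostly in columns 1 and 6 and Q140 x Msh3+/- mice mostly in columns 2, 4 and 5. Over 14 alternatives, the plate column as an added factor among them, the median lay between -0.058 and -0.033 and the count between 4 and 10.

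The 3 members with the smallest p in this comparison were Psmb1, Psmd14 and Psmd11. Psmb1, a subunit of the beta ring, had a lowest, median and highest level of 54.5, 57.7 and 61.0 CPM in Q140 x Msh3+/- mice, against 57.5, 61.3 and 66.4 CPM in Msh3+/- mice. All 8 Q140 x Msh3+/- mice lay below the Msh3+/- median, and the groups overlapped (log2 fold change -0.076 ± 0.029 SE, unadjusted p = 0.0125, adjusted p = 0.78, edgeR quasi-likelihood test).
Psmd14, the deubiquitinase of the lid, had 48.8, 51.7 and 52.9 CPM in Q140 x Msh3+/- mice, against 50.8, 54.2 and 61.0 CPM in Msh3+/- mice. Again all 8 lay below the median of the other group, with 3 of them below its lowest mouse (log2 fold change -0.098 ± 0.039 SE, adjusted p = 0.78). Psmd11, a lid subunit, had 50.1, 52.0 and 53.7 CPM in Q140 x Msh3+/- mice, against 52.4, 53.3 and 58.8 CPM in Msh3+/- mice. There 5 of 8 lay below the lowest Msh3+/- mouse (log2 fold change -0.067 ± 0.027 SE, adjusted p = 0.78).

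The catalytic subunits had folds close to 1. Psmb5 had 25.1, 26.7 and 29.2 CPM in Q140 x Msh3+/- mice, against 24.7, 27.0 and 29.9 CPM in Msh3+/- mice (fold 0.98, 95% interval 0.931 to 1.03). Psmb6 had 51.5, 55.2 and 62.3 CPM, against 51.1, 56.4 and 60.2 CPM in Msh3+/- mice (fold 0.991, interval 0.945 to 1.04). Psmb7 had 54.4, 58.2 and 60.1 CPM, against 54.5, 57.3 and 62.6 CPM in Msh3+/- mice (fold 0.992, interval 0.949 to 1.04). In each of the 3 genes the groups overlapped over most of their range.

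**Figure D2:**
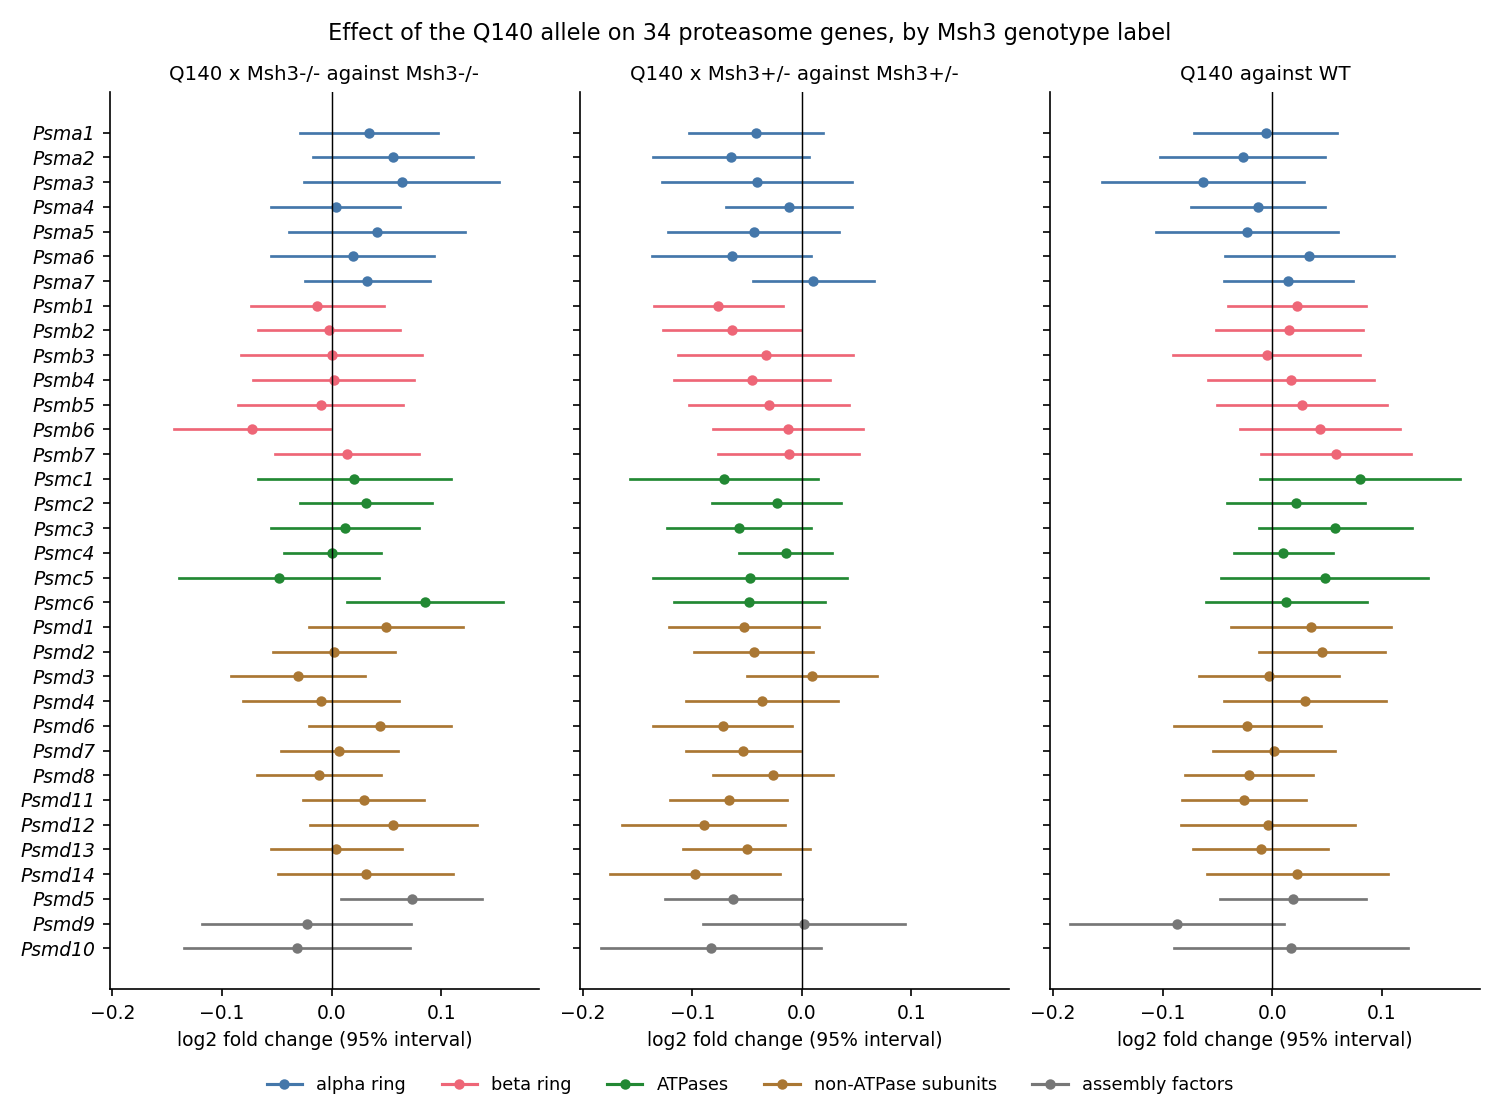
Log2 fold change of 34 proteasome genes (Psma8 left out for its wide interval) in Q140 x Msh3-/- against Msh3-/- mice, Q140 x Msh3+/- against Msh3+/- mice and Q140 against WT mice, from left to right; points are edgeR estimates, bars 95% intervals not adjusted for the number of genes, colours classes. Most points lie left of 0 in the middle panel, where the median of the members was -0.046, and on both sides of it in the others.

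In Q140 x Msh3-/- mice against Msh3-/- mice the lean was the other way, with 25 of 35 members higher and a median of 0.013 on the log2 scale, against -0.0026 over all genes. All 8 members of the alpha ring were higher, as were 5 of the 6 ATPases, while 3 of 7 members of the beta ring were. There were 3 members at an unadjusted p under 0.05 (8.57%), against 6.8% of all genes, and neither a member nor any other gene passed the adjusted threshold (0% of 20010).

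Psmc6, an ATPase, had 53.4, 58.5 and 65.0 CPM in Q140 x Msh3-/- mice, against 50.8, 55.6 and 58.2 CPM in Msh3-/- mice. Its fold, the highest of the 34 members other than Psma8 in the 7 comparisons, was 1.06 (95% interval 1.01 to 1.11, adjusted p = 0.70, edgeR), and 4 of 8 Q140 x Msh3-/- mice lay above the highest Msh3-/- mouse. Psmd5, an assembly factor, had 29.5, 31.7 and 35.2 CPM in Q140 x Msh3-/- mice, against 28.7, 30.2 and 32.1 CPM in Msh3-/- mice (fold 1.05, adjusted p = 0.70). Psmb6 had 49.8, 53.1 and 59.9 CPM, against 53.0, 57.0 and 58.6 CPM in Msh3-/- mice (fold 0.951, interval 0.905 to 0.999, adjusted p = 0.73), opposite in direction to the other 2. Psmb5 had a fold of 0.993 (interval 0.943 to 1.05) and Psmb7 a fold of 1.01 (interval 0.965 to 1.06) in the same comparison.

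In Q140 mice against WT mice 21 of 35 members were higher, with a median of 0.015, against 0.0019 over all genes. The linear relation of log2 CPM to GC content over all genes was also removed from each library, a setting added after seeing the data. The median of the members, from group means of log2 CPM, was then 0.007 in place of 0.016, beside -0.0053 over all genes. No member reached an unadjusted p under 0.05, against 5.48% of all genes, of which 0.01% passed the adjusted threshold. All 6 ATPases were higher, by up to 0.080 on the log2 scale in Psmc1, as were 6 of 7 members of the beta ring. Of the alpha ring 2 of 8 were higher, of the non-ATPase subunits 5 of 11 and of the assembly factors 2 of 3. WT mice had the lowest mean of the ATPases among the 6 groups, at -0.025 as log2 CPM minus the mean over all mice. The lowest, median and highest Psmc1 level was 75.9, 86.0 and 93.7 CPM in Q140 mice, against 76.1, 79.6 and 85.7 CPM in WT mice, and 7 of 8 Q140 mice lay above the WT median (fold 1.06, interval 0.992 to 1.13, adjusted p = 0.93).

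Psmd9 had 17.0, 17.7 and 19.4 CPM in Q140 mice, against 17.3, 19.0 and 20.5 CPM in WT mice (fold 0.942, interval 0.880 to 1.01, adjusted p = 0.93). Psmb7 had 55.8, 58.4 and 60.9 CPM in Q140 mice, against 52.4, 55.5 and 60.3 CPM in WT mice (fold 1.04, interval 0.993 to 1.09). In Psmb7 and in Psmb6 (fold 1.03, interval 0.98 to 1.08) all 8 Q140 mice lay above the WT median. Psmb5 had a fold of 1.02 (interval 0.966 to 1.08). In Psmc1 and each of these genes the groups overlapped.

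The difference between the Q140 effects was itself tested. With 1 altered Msh3 allele minus none, 30 of 35 members had a negative difference, with a median of -0.056, against -0.0043 over all genes. There were 5 members at an unadjusted p under 0.05 (14.3%), against 6.43% of all genes, and 0 members and 0% of all genes passed after adjustment. The count was 9 when the 3 libraries standing apart on component 2 of all genes were left out and 0 with the plate column as an added factor. The difference was -0.15 ± 0.062 SE in Psmc1, -0.12 ± 0.048 SE in Psmc3 and -0.099 ± 0.043 SE in Psmb1, with adjusted p from 0.72 to 0.74 in edgeR. Psmb5, Psmb6 and Psmb7 had -0.057, -0.056 and -0.070, each with an interval that spanned 0.

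With 2 altered alleles minus none, 20 of 35 members had a positive difference, the median was 0.0085, and 1 member, Psmb6, was at an unadjusted p under 0.05 (2.86%), against 5.35% of all genes; 0 members and 0% of all genes passed after adjustment. With the relation to GC content removed the median, from group means of log2 CPM, was 0.024 in place of 0.0069, beside 0.019 over all genes. The difference was -0.12 ± 0.051 SE in Psmb6 (adjusted p = 0.92, edgeR), 0.13 ± 0.064 SE in Psma3 and 0.083 ± 0.052 SE in Psma2, both subunits of the alpha ring. In Psmb5 it was -0.037 and in Psmb7 -0.044. Both of these differences use the same Q140 and WT mice, as do the comparisons against those groups. The difference with 1 altered allele also uses the Msh3+/- mice. So do the comparisons of Q140 x Msh3+/- with Msh3+/- mice and of Msh3+/- with WT mice. The leans in these 3 are therefore not separate observations.

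Psmb6 came nearest to a call of all members in the comparisons of genotypes, in Q140 x Msh3-/- mice against Q140 mice. It had 49.8, 53.1 and 59.9 CPM in Q140 x Msh3-/- mice, against 57.6, 57.9 and 59.5 CPM in Q140 mice. Of the 8 Q140 x Msh3-/- mice, 7 lay below the lowest Q140 mouse and 1, male 2, above the highest. Those 7 were also the ones with libraries in plate columns 3 and 4, while male 2 was in column 1. Of the Q140 mice only female 3, the lowest at 57.6 CPM, was in column 3 or 4. The split thus ran along the plate columns as well as the genotypes, and the part of each in it was not tested. The fold was 0.928 (95% interval 0.884 to 0.975), with an unadjusted p of 0.0037 and an adjusted p of 0.35 in edgeR. Over 14 alternatives, the plate column as an added factor among them, the log2 fold change lay between -0.117 and -0.089. The 8 Q140 mice were close together in this gene, with an SD of 0.602 CPM, against 1.82 to 3.37 CPM in the other 5 groups.

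In the same comparison 14 of 35 members were higher and 21 lower, with a median of -0.015, against -0.0073 over all genes. Taken from group means of log2 CPM, the median was -0.0069 and 20 were lower. With the relation to GC content removed it was 0.0075, with 21 higher and 14 lower, beside 0.012 over all genes. Besides Psmb6, Psma4 was at an unadjusted p under 0.05, so 2 members (5.71%) were, against 9.07% of all genes; 0.045% of all genes and 0 members passed after adjustment. Psma4, of the alpha ring, had 47.7, 51.3 and 53.5 CPM in Q140 x Msh3-/- mice, against 46.4, 48.7 and 52.7 CPM in Q140 mice (fold 1.04, adjusted p = 0.54). Psmb5 had 25.02, 26.9 and 27.7 CPM in Q140 x Msh3-/- mice, against 26.2, 28.3 and 29.1 CPM in Q140 mice, and all 8 lay below the Q140 median (fold 0.953, interval 0.905 to 1.004, adjusted p = 0.59). Psmb7, the other catalytic subunit, had a fold of 1.01 (interval 0.970 to 1.06).

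In Q140 x Msh3+/- mice against Q140 mice 28 of 35 members were lower, with a median of -0.029, against -0.0019 over all genes. There were 3 members at an unadjusted p under 0.05 (8.57%), against 5.14% of all genes, and 0 members and 0.02% of all genes passed after adjustment. Limma voom with weights had 7 members at that threshold. Psmd7 had 71.0, 77.9 and 84.9 CPM in Q140 x Msh3+/- mice, against 78.9, 81.1 and 86.7 CPM in Q140 mice, with 5 of 8 below the lowest Q140 mouse (fold 0.958, adjusted p = 0.96). Psmc1 had 74.8, 79.4 and 91.2 CPM, against 75.9, 86.0 and 93.7 CPM in Q140 mice (fold 0.935, adjusted p = 0.96). Psmd4 had 61.7, 64.7 and 72.9 CPM, against 63.4, 70.1 and 72.5 CPM in Q140 mice (fold 0.951, adjusted p = 0.96). In each of these 3 genes 7 of the 8 Q140 x Msh3+/- mice lay below the Q140 median. Psmb5, Psmb6 and Psmb7 had folds of 0.964, 0.958 and 0.993, and each interval spanned 1. In Psmb6 7 of the 8 Q140 x Msh3+/- mice lay below the lowest Q140 mouse here too, and 1 lay above the highest. Those 7 had libraries in plate columns 2, 4, 5 and 6, and the 1 above, female 1, was in column 1. The part of the columns was not tested.

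**Figure D3:**
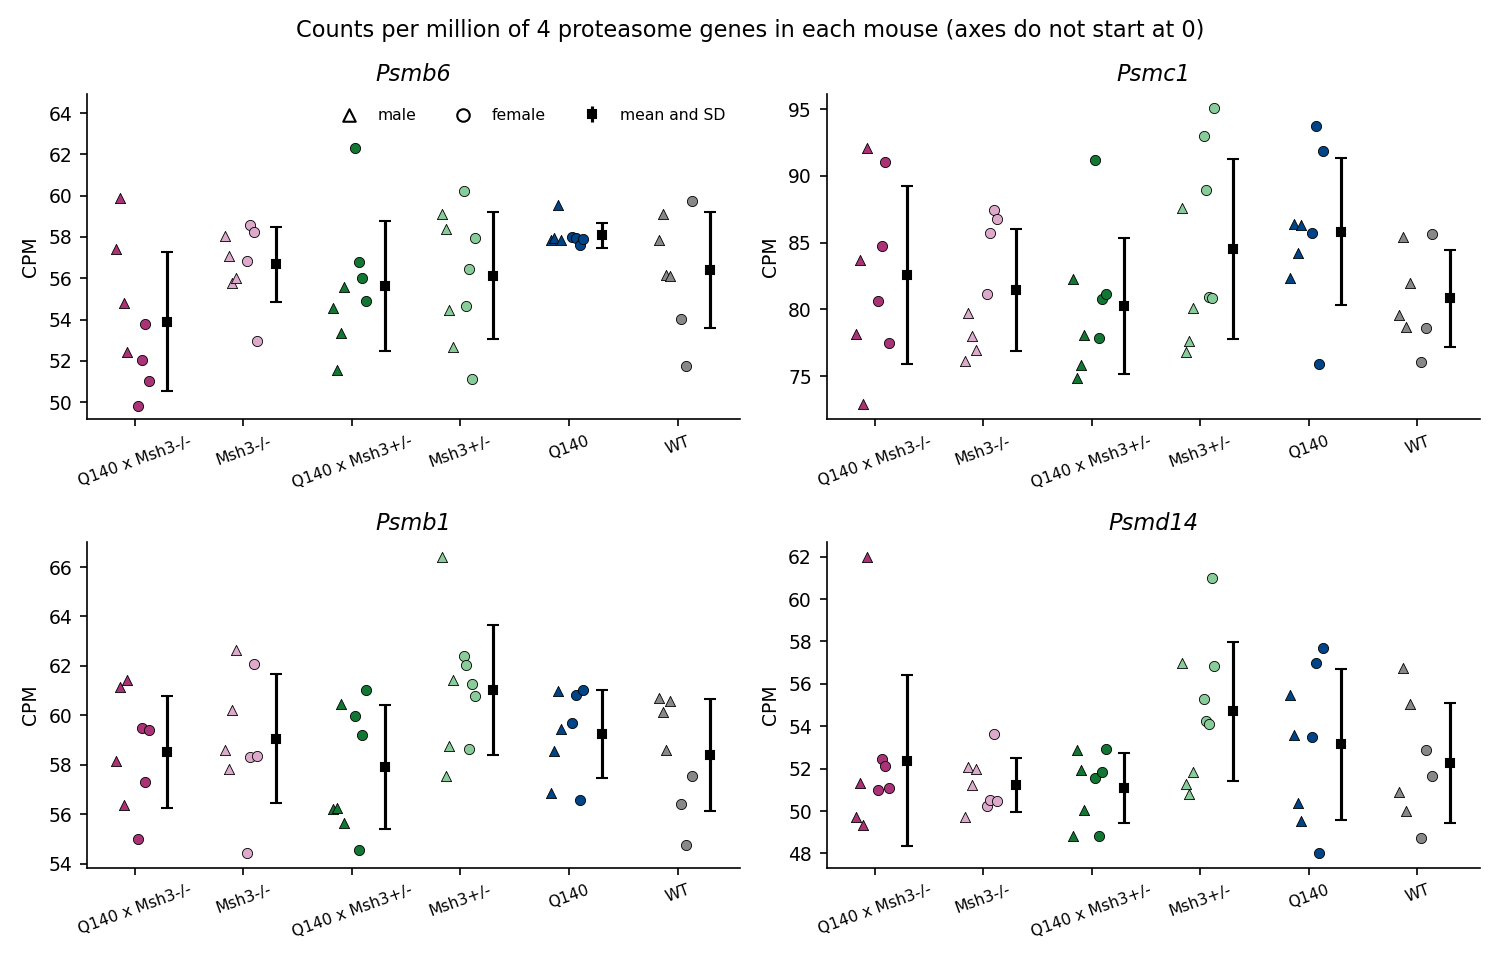
CPM of Psmb6, Psmc1, Psmb1 and Psmd14 in each mouse by genotype group (triangles males, circles females, black square and bar the mean and SD); the axes do not start at 0. In Psmb6, 7 of 8 Q140 x Msh3-/- mice lie below the lowest of the 8 Q140 mice, and the groups overlap in every panel.

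The altered Msh3 allele was also compared with WT in the absence of Q140. In Msh3-/- mice 15 of 35 members were higher than in WT mice and 20 lower, with a median of -0.0071; 1 member (2.86%) was at an unadjusted p under 0.05, against 5.73% of all genes, and 0 members and 0.035% of all genes passed after adjustment. That member was Psmd9, with 15.9, 17.6 and 18.9 CPM in Msh3-/- mice, against 17.3, 19.0 and 20.5 CPM in WT mice. All 8 Msh3-/- mice lay below the WT median (fold 0.913, interval 0.853 to 0.977, adjusted p = 0.85). Psmb7 had 55.5, 58.5 and 62.6 CPM in Msh3-/- mice, against 52.4, 55.5 and 60.3 CPM in WT mice (fold 1.05, interval 0.998 to 1.096). Psma2 had 41.03, 42.3 and 44.3 CPM, against 40.5, 45.1 and 47.5 CPM in WT mice, again with all 8 below the WT median (fold 0.957, interval 0.909 to 1.01). Psmb5 and Psmb6 had folds of 0.978 (interval 0.927 to 1.03) and 1.01 (interval 0.956 to 1.06).

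In Msh3+/- mice 25 of 35 members were higher than in WT mice, with a median of 0.025, against 0.0013 over all genes. All 6 ATPases were higher here too, with a median of 0.053, against the same WT mice as in the comparison of Q140 with WT. There were 3 members at an unadjusted p under 0.05 (8.57%), against 9.5% of all genes, and 0 members and 0.025% of all genes passed after adjustment. The count was 1 with the plate column as an added factor and 8 when the 3 libraries standing apart on component 2 of all genes were left out. Psmc6 had 54.3, 59.1 and 61.9 CPM in Msh3+/- mice, against 51.7, 55.6 and 59.2 CPM in WT mice (fold 1.06, adjusted p = 0.49). Psmb1 had 57.5, 61.3 and 66.4 CPM, against 54.8, 58.6 and 60.7 CPM in WT mice, with 6 of 9 above the highest WT mouse (fold 1.05, adjusted p = 0.50). Psmd9 had 16.2, 17.5 and 21.03 CPM, against 17.3, 19.0 and 20.5 CPM in WT mice (fold 0.935, adjusted p = 0.52), and 4 of 9 lay below the lowest WT mouse. Psmb5, Psmb6 and Psmb7 had folds of 1.002, 0.996 and 1.04, with intervals that spanned 1.

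Tested over the 6 genotypes at once, 0 of 35 members reached an unadjusted p under 0.05 in edgeR, against 7.54% of all genes, and 0.105% of all genes passed after adjustment; DESeq2 and limma voom with weights each had 1 member at an unadjusted p under 0.05. The smallest p of the members were 0.051 for Psmc6, 0.058 for Psmd9 and 0.097 for Psmb6, all with an adjusted p of 0.66 to 0.68. Psmb7 and Psmb5 had unadjusted p of 0.30 and 0.44.

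The mean of the 34 members in each mouse, as log2 CPM minus the mean over all mice, showed how small these shifts were. Its group means were 0.0027 ± 0.031 in Q140 x Msh3-/- mice, -0.010 ± 0.018 in Msh3-/- mice, -0.021 ± 0.031 in Q140 x Msh3+/- mice, 0.023 ± 0.036 in Msh3+/- mice, 0.0061 ± 0.031 in Q140 mice and -0.0035 ± 0.036 in WT mice (SD, n = 7 to 9). Q140 x Msh3+/- mice had the lowest mean and Msh3+/- mice the highest. The groups overlapped widely: single mice ran from -0.061 to 0.031 in Q140 x Msh3+/- mice and from -0.033 to 0.073 in Msh3+/- mice. The WT group held 3 females, and these were its 3 lowest mice, from -0.059 to -0.0073. Libraries differed in how level ran with GC content. The slope of log2 CPM on GC content over all genes was -0.071 to 0.071 per 10 percentage points in Q140 x Msh3+/- mice, against -0.096 to 0.048 in Msh3+/- mice. That relation was then taken out of each library, an alternative chosen after seeing the data. The median of the members in Q140 x Msh3+/- against Msh3+/- mice was -0.049, beside -0.0034 over all genes, and 32 of 35 were lower. In Q140 x Msh3-/- against Msh3-/- mice it was 0.024 and 30 of 35 were higher, beside a median of 0.012 over all genes.

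**Figure D4:**
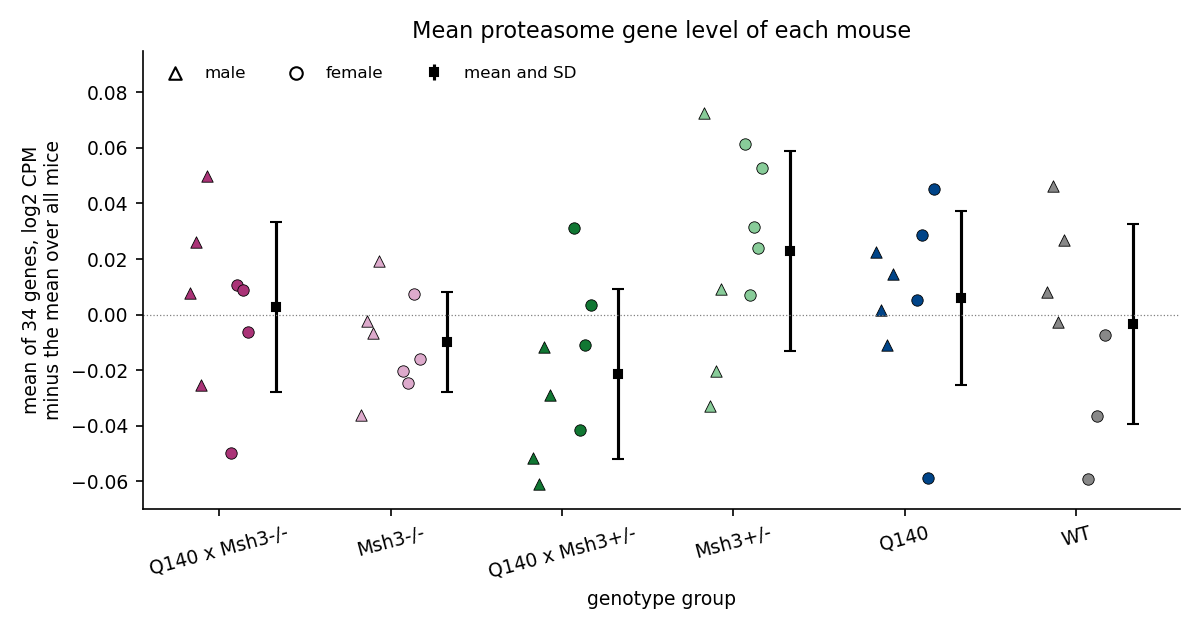
Mean over 34 proteasome genes of log2 CPM minus the gene's mean over all mice, for each mouse by genotype group (triangles males, circles females, black square and bar the group mean and SD). Group means run from -0.021 in Q140 x Msh3+/- mice to 0.023 in Msh3+/- mice and the groups overlap.

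Of 33 further genes tested, which cover the inducible catalytic subunits, activators, assembly chaperones, ubiquitin genes, shuttle factors and the regulators of proteasome genes, 0 were called in any comparison of genotypes with edgeR, and 0 to 5 a comparison were at an unadjusted p under 0.05. The 5 were in Q140 x Msh3-/- against Q140 mice, where 9.07% of all genes were. Nfe2l1, the transcription factor that raises proteasome genes, averaged 74.4 FPKM, and its fold was 1.01 in Q140 against WT mice (95% interval 0.972 to 1.05), 0.999 in Q140 x Msh3+/- against Msh3+/- mice (interval 0.965 to 1.03) and 0.991 in Q140 x Msh3-/- against Msh3-/- mice (interval 0.956 to 1.03). These are levels of its RNA, and the activity of the protein was not measured. Psme1, which encodes a subunit of an activator that opens the core particle, had folds of 1.015, 1.02 and 1.03 in the same 3 comparisons, and each interval spanned 1. In Q140 x Msh3+/- against Msh3+/- mice 8 of the 33 were higher and 25 lower, with a median of -0.037.

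Sex was the comparison in which most genes were called, 5.56% of all genes, yet 0 of 35 members were in edgeR or DESeq2, while limma voom with weights called 1, Psmc1. There were 4 members at an unadjusted p under 0.05 (11.4%), against 20.7% of all genes. Psmc1 had a lowest, median and highest level of 72.9, 79.6 and 92.1 CPM in males, against 75.9, 85.2 and 95.1 CPM in females (log2 fold change -0.068 ± 0.025 SE, adjusted p = 0.10 in edgeR, 0.091 in DESeq2 and 0.039 in limma voom). The male mean was below the female mean in 5 of 6 genotype groups, all but WT, where it was 81.4 ± 3.02 CPM in males (n = 4) and 80.1 ± 4.98 CPM in females (n = 3). Psmd5 had 29.3, 31.2 and 35.2 CPM in males, against 27.6, 30.6 and 32.6 CPM in females (fold 1.03, adjusted p = 0.13). Psmb2, of the beta ring, had 39.7, 44.6 and 48.02 CPM in males, against 40.4, 42.5 and 45.9 CPM in females (fold 1.03, adjusted p = 0.18). The fourth was Psmc5, an ATPase (adjusted p = 0.21). All 7 members of the beta ring were higher in males, with folds of 1.01 in Psmb5, Psmb6 and Psmb7, and 5 of the 6 ATPases were lower.

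Of the 33 further genes 2 were called by sex, against 5.56% of all genes, and Psme1 was among them. Psme1 rose in males, with 17.7, 19.3 and 21.8 CPM in males, against 16.3, 18.3 and 19.9 CPM in females (fold 1.05, interval 1.02 to 1.09, adjusted p = 0.046, edgeR). The ranges of the sexes overlapped. Nfe2l1 did not pass (fold 0.98, interval 0.960 to 1.001, adjusted p = 0.26).

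From mouse to mouse the members moved together more than genes at large, a background not matched to them in level. Correlations were taken over 48 mice on log2 CPM with the means of genotype and sex removed; all points of a library share its depth and its RNA. Over the 561 pairs of the 34 members the median r was 0.19, and 429 pairs (76.5%) were positive, against a median of 0 and 49.8% positive among all pairs of tested genes. Within a class the median r was 0.24 over 115 pairs, and between classes 0.18 over 446 pairs. Adjusted p-values below are over these 561 pairs (permutation tests, Benjamini-Hochberg).

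The closest pair was Psmc3, an ATPase, and Psmd4, a ubiquitin receptor, at r = 0.81 and rho = 0.75 (permutation p = 1e-05 for both, the smallest that 100000 permutations give, adjusted p = 0.000193 and 0.000295; r = 0.76 without the 2 mice farthest from the median). Psmc3 also moved with the ATPase Psmc5, at r = 0.78 and rho = 0.73 (p = 1e-05 for both), and with the scaffold subunit Psmd2, at r = 0.76 and rho = 0.76 (p = 1e-05 for both). Psmd14 moved with Psma2, at r = 0.74 and rho = 0.77, and with Psmc6, at r = 0.71 and rho = 0.68 (permutation p = 1e-05 in each). The adjusted p of these 4 pairs was 0.000193 for r and 0.000295 for rho, and r without the 2 farthest mice was 0.74, 0.75, 0.72 and 0.62. The pair farthest below 0 was Psmc6 and Psmd3, a lid subunit, at r = -0.66 and rho = -0.65 (permutation p = 1e-05 for both, adjusted p = 0.000193 and 0.000295; r = -0.66 without the 2 farthest mice). In females alone these 6 pairs had r of 0.90, 0.83, 0.84, 0.76, 0.69 and -0.55, and in males alone 0.64, 0.70, 0.61, 0.72, 0.73 and -0.72, in the order given. With the plate column of the library's well also removed they were 0.74, 0.75, 0.74, 0.73, 0.72 and -0.70.

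A first principal component of the members took 27% of their variance, with 32 of 34 loadings positive, and a second took 19.2%. Across mice the score on the first ran with the mitochondrial share of the counts, 4.37% to 6.51% (r = 0.33, rho = 0.33; r = 0.25 without the 2 libraries farthest from the median share), and with the library's slope on GC content (r = -0.38, rho = -0.37; r = -0.28 without the 2 farthest slopes). Their part in the common movement was not tested here beyond the GC setting below. The 6 highest loadings on the second were those of Psmd4, Psmb6, Psmc5, Psmc3, Psmd8 and Psmd3, whose principal transcripts had 51.6% to 58.3% GC. The 6 lowest were those of Psma3, Psmd5, Psmd11, Psma1, Psmd14 and Psmd6, with 40.8% to 47.9% GC. The score on this second component ran with the library's slope on GC content (r = 0.67, rho = 0.71; r = 0.63 without the 2 libraries farthest from the median slope) and with the library total (r = 0.52, rho = 0.43; r = 0.50 without the 2 farthest totals), given here as a description.

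With the relation to GC content over all tested genes taken out of each library, a setting added after seeing the data, fewer pairs were negative and the median r was larger. The median r over pairs was 0.36, and 522 of 561 pairs (93%) were positive, against a median of 0.01 and 52.7% positive among all pairs of genes treated alike. Psmc6 and Psmd3 then had r = 0.25 in place of -0.66, while Psmd3 had r = -0.14 with Psmd14 and -0.26 with Psmd13. Psmc3 kept r = 0.80 with Psmd4, 0.79 with Psmc5 and 0.81 with Psmd2, while Psma2 and Psmc6 had r = 0.63 and 0.54 with Psmd14. Before that step the members with the lowest median r with the others were Psmd3, at -0.15, the assembly factor Psmd9, at 0.024, and Psmb3, at 0.033, and the highest were Psma2, at 0.38, and Psmb1, at 0.37.

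**Figure D5:**
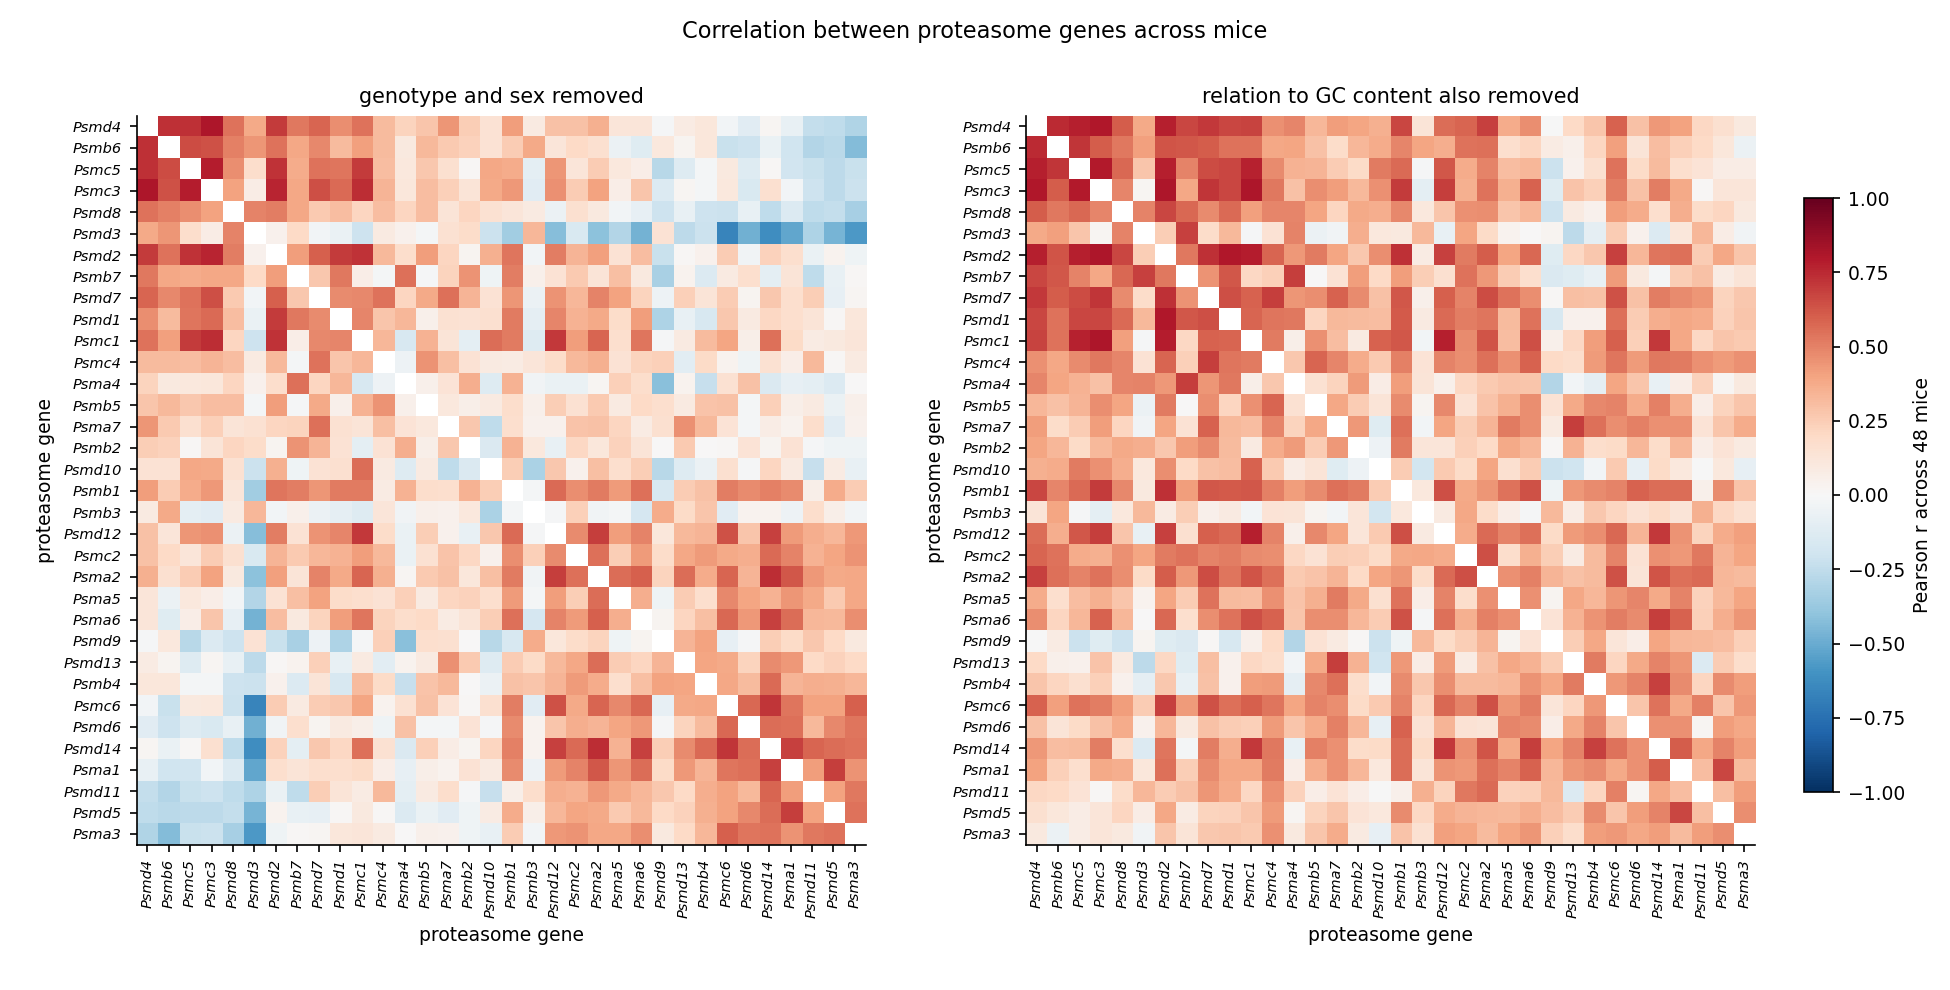
Pearson r between 34 proteasome genes across 48 mice (red positive, blue negative), with genotype and sex removed (left panel) and with each library's relation to GC content also removed (right panel), genes in the same order of loading on the second component. The blue cells of the left panel, such as Psmc6 with Psmd3 at -0.66, are mostly absent from the right panel, where 522 of 561 pairs are positive.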

How the data were processed

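Per the labels, total RNA came from cortex (Qiagen RNeasy) and went into Illumina TruSeq stranded libraries. Per the submitters' processing notes, the tools were HTSeq 0.12.3, STAR 2.7.5c and SAMtools 1.10, and the build was GRCm38 (mm10); the annotation release and strand setting are not given in the sources used here. The deposited counts are raw whole-number counts per gene. The deposited FPKM equal the authors' counts per library total and gene length, with a largest relative departure of 6.44e-15 over 12703 genes. Exons of 2 members overlap those of another gene on the same strand and of 8 on the opposite strand, so their counts are less certain.

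Counts of all 48 mice were fitted with edgeR 4.0.16 in R 4.3.3 (TMM, filterByExpr, genotype and sex) and tested with the quasi-likelihood F-test over 20010 genes, with the Benjamini-Hochberg adjustment; the fit was tested on simulated data. CPM use TMM-scaled library sizes, and log2 CPM a prior count of 1. Intervals are 95% intervals. DESeq2 1.42.0, limma 3.58.1, other filters, scalings, covariates and left-out libraries were alternatives. The members and lists were chosen with earlier results of these data known. Named in each comparison were the 3 members with the smallest p, any called member and Psmb5, Psmb6 and Psmb7, and of the related list Nfe2l1, Psme1 and any called gene, of which 1 is not reported here. Mice of different groups share stems in their column names, and no label says what a stem means; p-values treat the mice as independent.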

Additional observations from a re-analysis of the deposited data

Results flagged for a closer look

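A mouse that lay far from the others of its group, relative to the group's range, was looked for in 102 groups of values (17 members in 6 genotypes). The 17 were the members named for the smallest p in a comparison. They were thus chosen on these same data, which the chance count below does not allow for. There were 10 such values, some of them from the same mouse, where chance gives about 1 in 20 groups, 5.1 of 102 if the groups were independent; members that move together are not. In Q140 x Msh3-/- mice, male 4 was highest in Psmd14 at 61.99 CPM, with the others at 49.3 to 52.5 CPM, and in Psmd11 at 59.3 CPM, with the others at 50.8 to 54.3 CPM. In Msh3-/- mice, male 1 was lowest in Psmc6 at 50.8 CPM, with the others at 54.97 to 58.2 CPM, female 3 was highest in Psmd4 at 71.3 CPM, with the others at 65.5 to 67.96 CPM, and female 1 was highest in Psmd7 at 83.7 CPM, with the others at 78.15 to 80.1 CPM. In Q140 x Msh3+/- mice, female 1 was highest in the ATPases Psmc1, at 91.2 CPM against 74.8 to 82.3 CPM in the others, and Psmc3, at 119.3 CPM against 100.5 to 109.2 CPM. In Msh3+/- mice, female 4 was highest in Psmd11 at 58.8 CPM, with the others at 52.4 to 55.6 CPM. In Q140 mice, male 3 was highest in Psmb6 at 59.5 CPM, with the others at 57.6 to 58.02 CPM, and female 4 was highest in Psmd7 at 86.7 CPM, with the others at 78.9 to 81.6 CPM.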

How the results depend on the processing

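Over 14 alternatives per comparison of 2 genotypes, 0 members were called in every one, and every median of the members moved by less than 0.0313, the SD between mice of the mean of the members. Most of the medians were themselves smaller than 0.0313, so this bound cannot show that they held. That for the difference with 2 altered alleles ran from -0.001 to 0.0175, and that for Q140 against WT from 0.0024 to 0.0203. The median in Q140 x Msh3+/- against Msh3+/- mice lay between -0.058 and -0.033, and its count at an unadjusted p under 0.05 between 4 and 10. The count for Msh3+/- against WT ran from 1 to 8 and that for the difference of Q140 effects with 1 altered allele from 0 to 9, lowest with the plate column as a factor and highest when the 3 libraries standing apart on component 2 of all genes were left out. By sex, limma voom with weights called 1 member, Psmc1, against 0 in edgeR, and its log2 fold change was -0.078. Replicate numbers did not pair the mice: same-numbered mice of different groups had a mean r of -0.031 over 115 pairs (-0.24 to 0.11). With a replicate block 0 members were called in the 10 comparisons it could be run for, the median in Q140 x Msh3+/- against Msh3+/- mice was -0.040, and 6 members were at an unadjusted p under 0.05. Mice that share a name stem had a mean r of 0.043 over 23 pairs, against -0.001 for others; with the stem as a random block (estimated correlation 0.106, limma voom) 0 members were called in the 11 comparisons. With the relation to GC content removed, a setting chosen after seeing the data, r of Psmc6 and Psmd3 was 0.253 in place of -0.659. The median in Q140 x Msh3-/- against Q140 mice, from group means of log2 CPM, was then 0.0075 in place of -0.0069, beside 0.012 over all genes. The cause was not tested. At this depth Psma8, with 3 to 27 reads a library, allows no statement finer than its interval.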
